A study of Mus musculus with 46 samples.

Results

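Expression of Enho, which encodes the peptide hormone adropin, and of 8 other genes for secreted liver proteins was described in the liver of mice fed 4 diets. These 9 genes, of 20887 genes with a named probe on the array, were taken by name as a set of hepatokines, and Enho itself had been taken up by the study from among genes that changed on these arrays, after reports on adropin. Probe IDs were named through the transcript accession that the array design gives, and a gene with more than 1 probe was represented by its brightest in liver (mean log2 signal), so that 9 of 14 probe IDs were used. All 9 were well above background on all 24 liver arrays.

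Male C57BL/6 mice, singly housed and 12 weeks old at the start, ate their diet for 8 weeks and were 20 weeks old at the end. Fat made up 45% of the energy of the HFD and 10% of that of the LFD. The LFD also held more carbohydrate, with more corn starch and sucrose, so LFD and HFD did not differ in fat alone. HFD + inulin was the HFD with inulin, a fermentable polymer of fructose, added at 10% by weight in place of corn starch (5%) and cellulose (5%). HFD + inul PB held instead the propionate ester and the butyrate ester of inulin, 5% of each, so that every group but LFD shared the high fat intake. Liver RNA was hybridised to single-colour Agilent arrays, 6 per diet on 3 slides with 2 arrays of each diet on every slide, and cecum of the same diets gave 22 arrays. On the liver arrays between 46.4% and 51.7% of the spots were well above background, a share given here in place of a read depth. Levels are given as normalised log2 signal, in which 1 unit is a doubling. Probes differ in how brightly they bind, so levels are compared between arrays and not between genes, and the brightest probe of a marker list is not taken as its most abundant gene.

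Hepatokines are proteins that the liver secretes into blood and that act on other tissues. Adropin is a peptide tied to carbohydrate and lipid use, FGF21 a fasting and stress hormone that signals through its co-receptor beta-klotho, and ANGPTL4 an inhibitor of lipoprotein lipase. IGF-1 is made under the control of growth hormone and carried in blood by binding proteins, of which IGFBP-1 is repressed by insulin. The fetuins, encoded by Ahsg (fetuin-A) and Fetub (fetuin-B), are abundant plasma glycoproteins, and LECT2 is a chemotactic factor made mainly by hepatocytes.

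In brief, Enho was higher on both fiber diets than on HFD or LFD, whereas Igfbp1 was higher on LFD than on HFD or the fiber diets. None of the 8 other genes passed the criteria of a fold over 1.5 and an unadjusted P under 0.01 (LIMMA) on HFD + inulin, where 0.399% of all 55681 probe IDs passed, or on HFD + inul PB, where 0.289% passed. At an unadjusted P under 0.05 the LIMMA counts for these 8 genes were 0 on either fiber diet, beside 3.79% and 3.13% of all probe IDs. On LFD 1 of the 8 passed the criteria, Igfbp1, and it was higher, in a comparison in which 0.717% of all probe IDs passed and 0.424% passed as higher. On LFD 3 of the 8, Igfbp1, Igfbp2 and Lect2, had an unadjusted P under 0.05, beside 6.77% of all probe IDs. After Benjamini-Hochberg adjustment over all probe IDs (LIMMA, adjusted P under 0.05) none of the 8 was called in any of these comparisons, in which 0%, 0% and 0.0287% of all probe IDs were called. All 3 comparisons share the 6 HFD arrays, so they are not independent of each other.

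**Figure D1:**
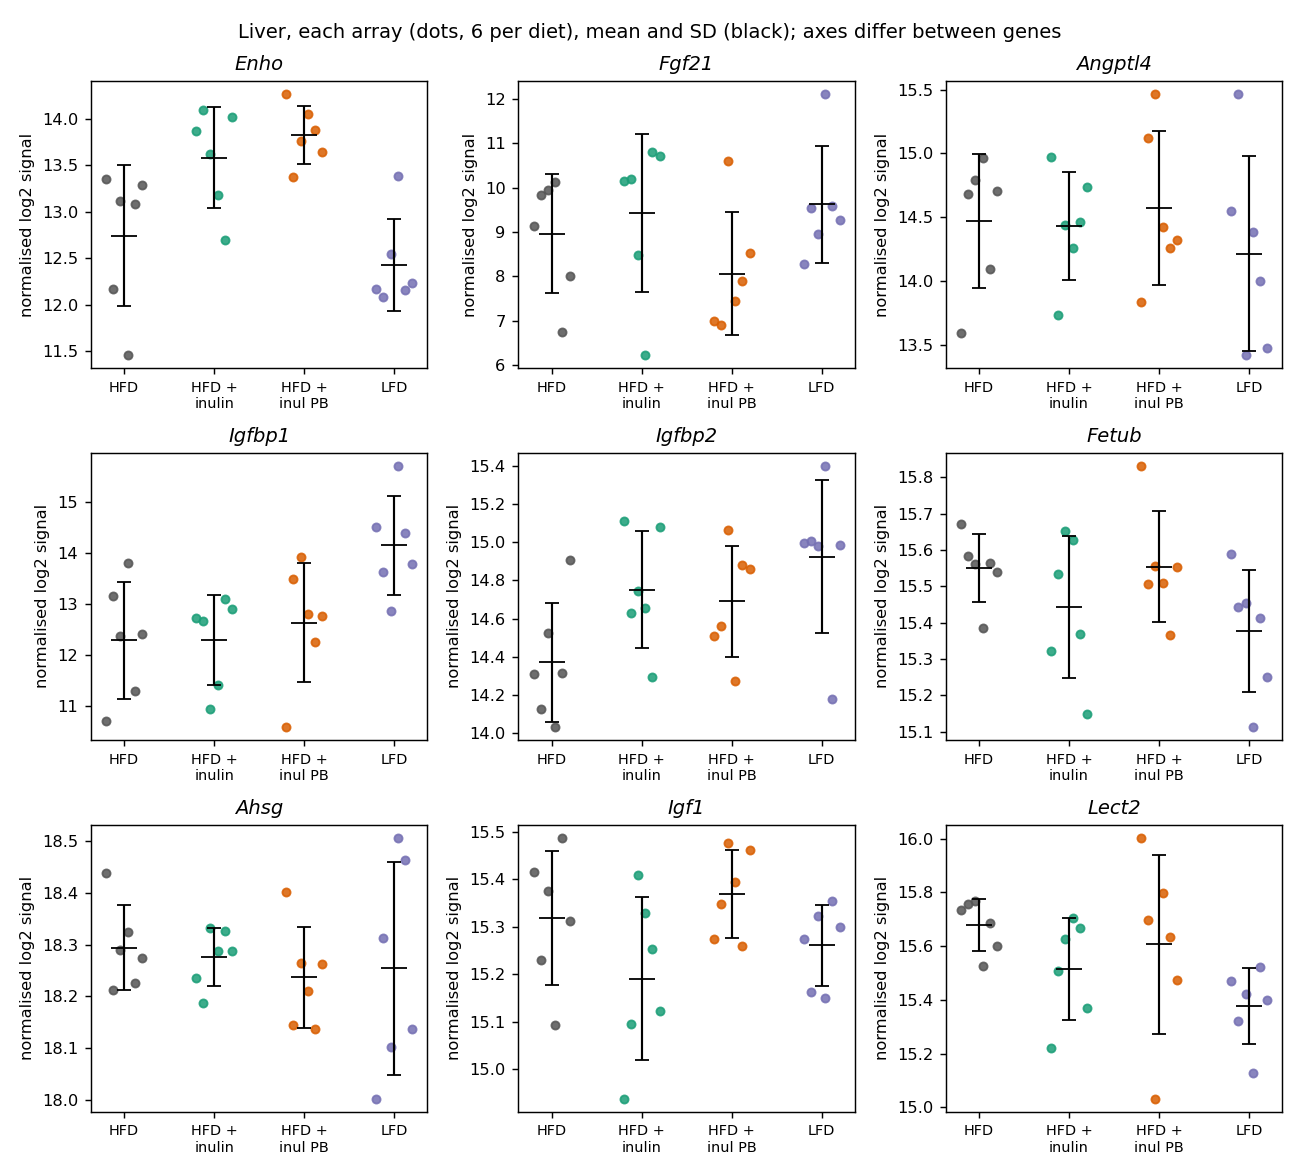
Normalised log2 signal of the 9 genes on each liver array (dots, 6 per diet), with the mean and SD of the diet in black. Enho stands higher on both fiber diets (means 13.58 and 13.83) than on HFD (12.74) and LFD (12.43), and Igfbp1 stands highest on LFD (14.15). The axis of each gene has its own range.

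A pair of arrays stood apart over these genes. The liver array of HFD replicate 4 was the highest or the lowest of its diet for 8 of the 9 genes, and so was that of LFD replicate 4; no other array reached more than 6. The HFD array had the highest Fgf21, Angptl4 and Igfbp1 of its diet and the lowest Enho, Igfbp2, Fetub, Igf1 and Lect2. The LFD array had the highest Enho, Fgf21, Igfbp1, Igfbp2 and Ahsg and the lowest Fetub, Igf1 and Lect2. Values without these arrays are given for a part of the results that they moved.

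The upstream sequence of Igfbp1 and Fgf21, which varied most between mice and rose and fell together (values below), is shown for the motifs by which these genes are known to respond to insulin and to amino acid shortage. Both are the 250 bases before the RefSeq transcription start on build GRCm38.p6, written 5′ to 3′ on the strand of the gene, and capitals mark the motif matches. Igfbp1 lies on the plus strand, with the window at chr11:7197537-7197786, and its capitals match the insulin response sequence TNTTTTG, searched on both strands. Fgf21 lies on the minus strand, with the window at chr7:45615491-45615740, and its capitals match the amino acid response sequence TTGCATCA.
Igfbp1: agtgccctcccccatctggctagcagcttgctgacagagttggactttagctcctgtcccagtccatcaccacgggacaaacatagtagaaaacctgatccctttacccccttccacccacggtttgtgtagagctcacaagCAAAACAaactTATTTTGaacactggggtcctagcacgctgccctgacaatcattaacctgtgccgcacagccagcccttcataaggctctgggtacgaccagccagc
Fgf21: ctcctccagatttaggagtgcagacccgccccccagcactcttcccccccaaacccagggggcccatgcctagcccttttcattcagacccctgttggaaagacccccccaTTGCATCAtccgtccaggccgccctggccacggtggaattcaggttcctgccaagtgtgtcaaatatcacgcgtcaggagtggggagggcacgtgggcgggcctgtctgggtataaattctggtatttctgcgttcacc

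Igfbp1 holds the insulin motif at 2 places, CAAAACA (minus strand) from -108 to -102 and TATTTTG (plus strand) from -97 to -91, counted from the transcription start. Of all 32851 windows of this length in the table, 16.9% hold the motif and 2.62% hold it 2 or more times. The amino acid motif lies from -139 to -132 in Fgf21 and is present in 0.792% of all windows. RefSeq windows were found for 7 of the 9 genes, with 9 windows in all, and no other gene of the set holds either motif in its windows. The sequences of Enho and Angptl4 were not in the table used here. The DR1 motif bound by PPARs (AGGTCA repeated directly with 1 base between) and the DR4 motif bound by LXRs (the same with 4 bases between) were found in 0 of the 9 windows and in 0.0335% and 0.0152% of all windows. Like the others searched on both strands, TGTTCT, a half-site of the glucocorticoid receptor motif, was found in windows of Igfbp2, Ahsg and Fetub and in 16.1% of all windows.

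Enho was measured by probe ID A_55_P2153517. On HFD its signal ran from 11.46 to 13.35 with a median of 13.10, and the mean was 12.74 ± 0.76 (SD, n = 6). On HFD + inulin it ran from 12.70 to 14.09 (median 13.74, mean 13.58 ± 0.54, n = 6), and on HFD + inul PB from 13.37 to 14.26 (median 13.82, mean 13.83 ± 0.31, n = 6). On LFD it ran from 12.09 to 13.38 (median 12.21, mean 12.43 ± 0.49, n = 6). Thus all 6 HFD + inul PB arrays lay above all 6 HFD arrays, although the lowest of the former exceeded the highest of the latter by little, and 4 of 6 HFD + inulin arrays lay above every HFD array. Of the 55519 probe IDs with a value on every HFD + inul PB and HFD array, 0.0576% were higher and 0.0648% lower with no overlap, shares given here as background only. Of the 12 fiber arrays, 9 lay above the highest LFD array, which was replicate 4. HFD itself was split, with replicates 2 and 4 at 12.17 and 11.46 and the other 4 arrays at 13.08 or above.

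The difference from HFD was 0.83 (SE 0.31) or 1.78-fold with HFD + inulin, 1.08 (SE 0.31) or 2.12-fold on HFD + inul PB, and -0.31 (SE 0.31) on LFD, and the mean of the fiber diets stood 1.27 (SE 0.27) or 2.41-fold above LFD. Because the study took Enho from among the genes that changed with fiber on these arrays, these values are a description and carry no test. Between the fiber diets and LFD 0.774% of all probe IDs were called by fold and P, 7.22% had an unadjusted P under 0.05 and 0.0593% an adjusted P under 0.05 (LIMMA). Without HFD replicate 4 the differences from HFD were 0.58, 0.82 and -0.57, and without LFD replicate 4 the LFD difference was -0.50. Within the 3 slides, each with 2 arrays per diet, the difference from HFD was 1.21, 1.11 and 0.17 on HFD + inulin and 1.05, 1.61 and 0.58 on HFD + inul PB, the same direction on every slide, whereas on LFD it was -0.63, 0.67 and -0.98. The other Enho probe ID, A_55_P2015753, gave 0.86, 1.16 and -0.25 and correlated with the first at r = 0.99 over the 24 arrays, a description of probes on the same arrays and not a second sample.

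Propionate and butyrate esters were compared with plain inulin at the same share of the diet. Enho was not taken from this comparison, but both of its diets took part in the choice of Enho. The P values and interval for Enho below are thus not free of that choice. HFD + inul PB stood 0.25 (SE 0.31) above HFD + inulin, with a 95% interval from -0.39 to 0.89 (LIMMA, P = 0.431, adjusted P = 1.00; two-sided exact permutation test, P = 0.379). The interval reached from a level 0.76 times that on HFD + inulin to one 1.85-fold as high. Of the 8 other genes, none passed the fold and P criteria between the fiber diets, where 0.198% of all probe IDs passed, and 1, Igf1, had an unadjusted P under 0.05, beside 2.29% of all probe IDs. For Igf1 the LIMMA P was 0.0910 when scaled to the 75th percentile and 0.0503 with only the diets compared.

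**Figure D2:**
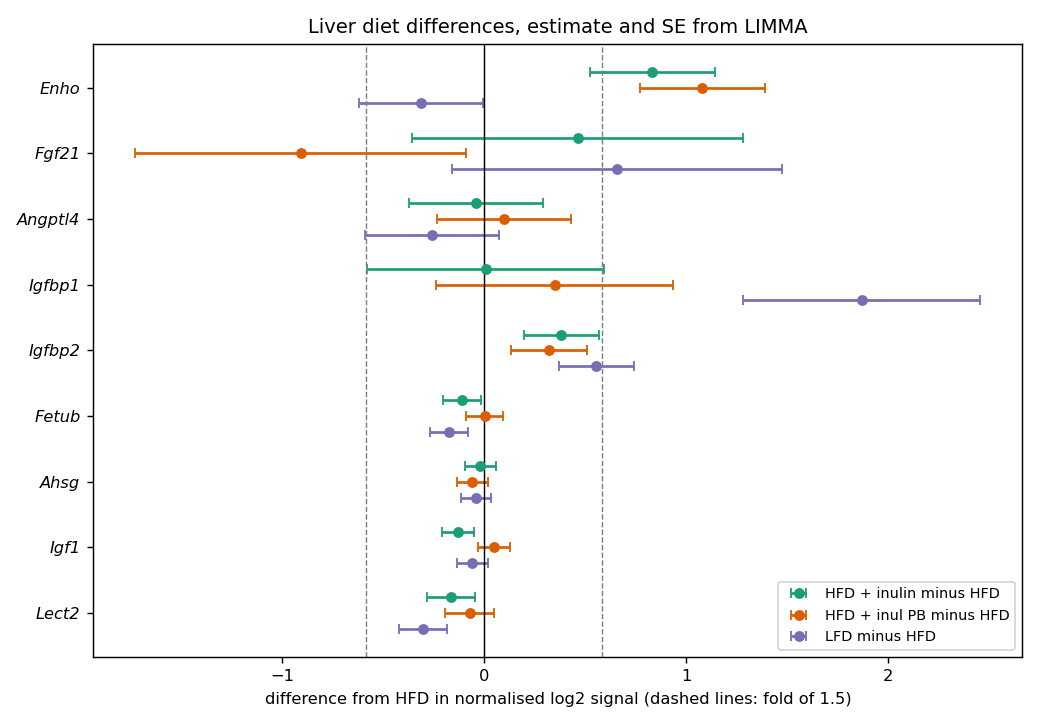
Difference of each diet from HFD in normalised log2 signal for the 9 genes in liver, with the SE from LIMMA as bars and dashed lines at a fold of 1.5. Enho on the fiber diets (0.83 and 1.08) and Igfbp1 on LFD (1.87) lie farthest to the right, and the values of Fetub, Ahsg, Igf1 and Lect2 lie between -0.30 and 0.05.

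Fgf21 was the most variable of the 9 genes. Its signal ran from 6.76 to 10.13 on HFD (median 9.48, mean 8.97 ± 1.33, n = 6), from 6.23 to 10.81 on HFD + inulin (median 10.17, mean 9.43 ± 1.78, n = 6), from 6.89 to 10.60 on HFD + inul PB (median 7.67, mean 8.06 ± 1.38, n = 6) and from 8.28 to 12.11 on LFD (median 9.41, mean 9.62 ± 1.31, n = 6). On HFD + inulin 4 of 6 arrays were above every HFD array and 1 below all, on HFD + inul PB 5 of 6 arrays were below the HFD mean and replicate 3 alone was above it, and all 4 diets overlapped. The differences from HFD were 0.46, -0.91 and 0.66 (SE 0.82 each) on HFD + inulin, HFD + inul PB and LFD (two-sided exact permutation tests, P = 0.597, 0.268 and 0.426). HFD + inul PB stood -1.37 (95% interval from -3.07 to 0.33) from HFD + inulin (exact permutation test, P = 0.165). Within slides the HFD + inulin difference was 0.69, -2.69 and 3.39, so its direction was not the same on each. The HFD + inulin difference was 0.02 without HFD replicate 5 and 1.10 without HFD + inulin replicate 4. With replicate 3 of the ester diet left out, the HFD + inul PB difference was -1.42, and it was -0.67 when HFD replicate 4 was dropped. The LFD difference was 0.16 without LFD replicate 4. Klb, the co-receptor of FGF21, differed from HFD by 0.04, 0.07 and 0.25 (SE 0.14) on the 3 diets, and 0 of the 8 receptor genes in the list of FGF21 and adropin receptors passed the criteria on any of them (LIMMA, 0 also at an unadjusted P under 0.05). Of these 8, 6 were above background on all liver arrays, and Kl and Cntn6 were on none, so that only a bound is known for them.

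Angptl4, a target of PPARα as Fgf21 is, gave no difference larger than the spread of the arrays. It ran from 13.59 to 14.96 on HFD (median 14.69, mean 14.47 ± 0.52, n = 6), from 13.73 to 14.97 on HFD + inulin (median 14.45), from 13.84 to 15.46 on HFD + inul PB (median 14.37) and from 13.42 to 15.46 on LFD (median 14.19). The differences from HFD were -0.04, 0.10 and -0.26 (SE 0.33 each, two-sided exact permutation tests, P = 0.887, 0.768 and 0.500). The 95% intervals, from -0.73 to 0.65 on HFD + inulin and from -0.59 to 0.79 on HFD + inul PB, included a fold of 1.5 in both directions. Within slides the LFD difference was 0.87, -0.98 and -0.66.

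Igfbp1, whose product holds IGF-1 away from its receptor, was higher on LFD. Its signal ran from 10.69 to 13.80 on HFD (median 12.39, mean 12.28 ± 1.15, n = 6), from 10.93 to 13.11 on HFD + inulin (median 12.70, mean 12.29 ± 0.89, n = 6) and from 10.58 to 13.91 on HFD + inul PB (median 12.78, mean 12.63 ± 1.17, n = 6). On LFD it ran from 12.85 to 15.72 (median 14.09, mean 14.15 ± 0.97, n = 6). All 6 LFD arrays lay above the mean of HFD, 3 of them above every HFD array, so that the diets still overlapped. The LFD difference was 1.87 (SE 0.59) or 3.65-fold, with a 95% interval from 1.57-fold to 8.50-fold (LIMMA, P = 0.00437, adjusted P = 0.450; two-sided exact permutation test, P = 0.0152).

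On the fiber diets Igfbp1 differed from HFD by 0.01 and 0.35, each with an SE of 0.59 (two-sided exact permutation tests, P = 0.991 and 0.604). The mean of the fiber diets stood -1.69 (SE 0.51) from LFD, a level 3.23-fold lower (LIMMA, P = 0.00315, adjusted P = 0.333; two-sided exact permutation test, P = 0.00345), and 8 of 12 fiber arrays lay below every LFD array. Of all probe IDs 0.535% were called as lower there. Within the slides the LFD difference was 2.16, 1.21 and 2.24. The call against HFD was lost without HFD replicate 1 (difference 1.55), HFD replicate 5 (1.67) or LFD replicate 4 (1.56), and the call against the fiber diets was lost without LFD replicate 4 (-1.38). Without HFD replicate 4 the difference from HFD was 2.17.

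Of 10 genes in a list of gluconeogenic and insulin-repressed genes, 0 were called by fold and P on LFD, 2 had an unadjusted P under 0.05 (LIMMA), beside 0.717% and 6.77% of all probe IDs, and the median difference was -0.03 beside -0.00 over all probe IDs. The summed signal of red blood cell markers, like Igfbp1, was highest on LFD. Of 9 listed markers 8 were measured, with Hba-a2 the brightest probe, and bright probes dominate the sum. It was 17.53 ± 0.21 on HFD, 17.72 ± 0.48 with HFD + inulin, 17.78 ± 0.35 with HFD + inul PB and 18.03 ± 0.28 on LFD (SD, n = 6 each). Its correlation with Igfbp1 over the 24 arrays was r = 0.39, in which the diet means take part. The sums of other cell types had r with Igfbp1 from -0.29 (cholangiocytes) to 0.32 (lymphocytes), with 0.29 for endothelial cells. These are descriptions, and the part of such cells in the result was not tested. In a whole liver sample, fewer cells of a type and less RNA per cell cannot be told apart.

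Igfbp2, a binding protein whose liver expression is known to rise with leptin, stood higher than on HFD in all 3 comparisons without passing the criteria in any. It ran from 14.03 to 14.91 on HFD (median 14.31, mean 14.37 ± 0.31, n = 6), from 14.29 to 15.11 on HFD + inulin (median 14.70, mean 14.75 ± 0.31, n = 6), from 14.27 to 15.06 on HFD + inul PB (median 14.71, mean 14.69 ± 0.29, n = 6) and from 14.18 to 15.40 on LFD (median 14.99, mean 14.93 ± 0.40, n = 6). On LFD 5 of 6 arrays lay above every HFD array and replicate 5 lay below the HFD mean. The LFD difference was 0.56 (SE 0.19), 1.47-fold and so just under the fold criterion, with LIMMA P = 0.00726 and adjusted P = 0.505 (two-sided exact permutation test, P = 0.0368). On HFD + inulin it was 0.38 and on HFD + inul PB 0.32, with an SE of 0.19 (two-sided exact permutation tests, P = 0.0671 and 0.113).

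Within slides the LFD difference of Igfbp2 was 0.79, 0.91 and -0.03. Without HFD replicate 3, HFD replicate 6 or LFD replicate 5 it passed both criteria, at 0.59, 0.66 and 0.71. It was 0.49 without HFD replicate 4 and 0.46 without LFD replicate 4. The other Igfbp2 probe ID gave 0.55 on LFD and 0.31 and 0.28 on the fiber diets. The summed signals of stellate cell and cholangiocyte markers were lower where Igfbp2 was higher, at r = -0.45 and -0.43 over the 24 arrays, and their part in the Igfbp2 values was not tested. The cholangiocyte sum was 10.46 on HFD, 10.28 with HFD + inulin, 10.39 with HFD + inul PB and 10.15 on LFD, and the stellate cell sum is given with the cell markers.

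Igf1 varied little. It ran from 15.09 to 15.49 on HFD (median 15.34), from 14.94 to 15.41 on HFD + inulin (median 15.19), from 15.26 to 15.48 on HFD + inul PB (median 15.37) and from 15.15 to 15.35 on LFD (median 15.29). The differences from HFD were -0.13, 0.05 and -0.06, each with an SE of 0.08 (two-sided exact permutation tests, P = 0.195, 0.491 and 0.400). HFD + inul PB stood 0.18 (SE 0.08) or 1.13-fold above HFD + inulin (LIMMA, P = 0.0326, adjusted P = 1.00; two-sided exact permutation test, P = 0.0476), with all 6 of its arrays above the HFD + inulin mean and 2 above every HFD + inulin array. The other 3 Igf1 probe IDs gave 0.18, -0.02 and 0.15 for this difference and correlated with the one used at r = 0.94, 0.04 and 0.56. These probe IDs thus did not all follow the one used. Ghr, the growth hormone receptor, differed from HFD by -0.21, -0.04 and -0.15 (SE 0.10), and 0 of the 19 genes of the GH and IGF axis passed the criteria on any diet (LIMMA), with 1, 0 and 3 at an unadjusted P under 0.05 beside 3.79%, 3.13% and 6.77% of all probe IDs. Of the 19, 17 were above background on all liver arrays.

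Among the plasma glycoproteins, Fetub ran from 15.39 to 15.67 on HFD (median 15.56), from 15.15 to 15.65 on HFD + inulin (median 15.45), from 15.37 to 15.83 on HFD + inul PB (median 15.53) and from 15.11 to 15.59 on LFD (median 15.43). Its differences from HFD were -0.11, 0.00 and -0.17, with an SE of 0.09 (two-sided exact permutation tests, P = 0.273, 0.978 and 0.0476; LIMMA, adjusted P = 1.00, 1.00 and 0.786). On LFD 5 of 6 arrays lay below the HFD mean and the diets overlapped, and without LFD replicate 4 the difference was -0.12. Ahsg, the gene for fetuin-A, ran from 18.00 to 18.51 over all arrays and differed from HFD by -0.02, -0.06 and -0.04 (SE 0.08 each, two-sided exact permutation tests, P = 0.690, 0.288 and 0.665). Its 95% interval on HFD + inulin ran from -0.18 to 0.14, so a change of 1.5-fold lay outside it. Ahsg moved with the brightness of the array, at r = -0.70 with the log2 of the 75th percentile of the signal over the 24 arrays, and Igf1 less so at r = -0.42; the part of brightness in these values was not tested.

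Lect2 had a lower signal on each LFD array than on any HFD array. It ran from 15.53 to 15.77 on HFD (median 15.71, mean 15.68 ± 0.10, n = 6), from 15.22 to 15.70 on HFD + inulin (median 15.57, mean 15.52 ± 0.19, n = 6), from 15.03 to 16.00 on HFD + inul PB (median 15.67, mean 15.61 ± 0.33, n = 6) and from 15.13 to 15.52 on LFD (median 15.41, mean 15.38 ± 0.14, n = 6). The 6 LFD arrays lay below all 6 HFD arrays, although the highest LFD array and the lowest HFD array were close. Of the 55540 probe IDs with a value on every LFD and HFD array, 0.567% had diets that did not overlap and 0.286% had LFD lower throughout. The LFD difference was -0.30 (SE 0.12), a level 1.23-fold lower, which is under the fold criterion (LIMMA, P = 0.0207, adjusted P = 0.638; two-sided exact permutation test, P = 0.00216, the smallest that 6 arrays against 6 allow). Within slides it was -0.35, -0.37 and -0.18, and without LFD replicate 4 it was -0.25. On HFD + inulin and HFD + inul PB the differences were -0.16 and -0.07 (two-sided exact permutation tests, P = 0.0887 and 0.675).

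The 9 genes differed widely in how much mice of the same diet varied. The within-diet SD was 1.46 for Fgf21, a 2.76-fold step, and 1.05 for Igfbp1, a 2.07-fold step, which placed them at percentiles 99.9 and 99.8 of the SDs of the 21736 probe IDs that were above background on all liver arrays. Angptl4 with 0.59 and Enho with 0.55 followed at percentiles 96.9 and 95.8, and Igfbp2 with 0.33 was at percentile 75.3. Lect2 (0.21), Fetub (0.16), Igf1 (0.13) and Ahsg (0.12) lay below the median of 0.23. Over all 24 arrays the signal of Fgf21 spanned 59.0-fold and that of Igfbp1 35.2-fold, against 6.98-fold for Enho and 1.42-fold for Ahsg. The share of the variance that lay between diets was 56.7% for Enho, which was taken from genes that changed with diet, 39.2% for Igfbp1, 30.6% for Igfbp2 and 25.8% for Lect2, but 16.9% for Fgf21.

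**Figure D3:**
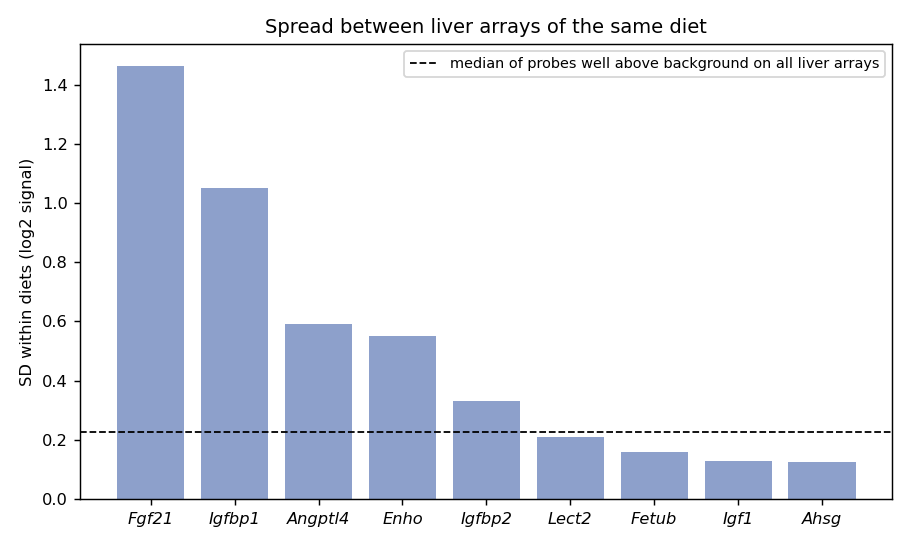
SD of the normalised log2 signal between liver arrays of the same diet, pooled over the 4 diets, for the 9 genes, with a dashed line at the median of all probe IDs above background on all liver arrays. Fgf21 (1.46) and Igfbp1 (1.05) stand above the others, and Lect2, Fetub, Igf1 and Ahsg lie below the line at 0.23.

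A further question was how the other hepatokines moved with Enho from mouse to mouse. Over the 24 liver arrays the level of Igfbp1 was lower where Enho was higher, with r = -0.44 and rho = -0.46, and the other 7 genes had r between -0.17 and 0.28. These pooled values hold the diet means of Enho and are given as a description with no P. With arrays centred on their diet the r of Igfbp1 was -0.30 (permutation test within diets, P = 0.194). Within the 3 slides of 8 arrays r was -0.66, -0.14 and -0.61, and without the 2 arrays farthest from the Enho median, HFD replicate 4 and LFD replicate 2, the pooled r was -0.40. It was -0.55 when LFD replicate 4 was left out and -0.37 when HFD + inul PB replicate 1 was. The diet-centred r was -0.12 without HFD replicate 4 and -0.54 without LFD replicate 4 (permutation tests within diets, P = 0.584 and 0.0196), so that it depended on single arrays.

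For Igfbp2 the pooled r with Enho was 0.28 (rho = 0.24) and the diet-centred r was 0.53 (permutation test within diets, P = 0.0152). Within slides it was -0.07, 0.39 and 0.57, and without the 2 farthest arrays the pooled r was 0.21. Without HFD replicate 4, the lowest of its diet for both genes, the pooled r was 0.13 and the diet-centred r 0.49, and without LFD replicate 4, the highest of its diet for both, they were 0.28 and 0.45. Without both arrays the diet-centred r was 0.37 (permutation test within diets, P = 0.104), so that the relation within diets rested in part on them. In a LIMMA fit of every probe ID on the Enho level with diet as a factor, 1 of the 8 genes, Igfbp2, had an unadjusted P under 0.05, with an adjusted P = 0.914, and the 7 others had an adjusted P of 1.00. In that fit 4.86% of all 55679 probe IDs had an unadjusted P under 0.05 and 0% had an adjusted P under 0.05.

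Fgf21, which like Enho acts on energy use, had r = -0.17 and rho = -0.06 with it, and 0.05 after centring on diets (permutation test within diets, P = 0.840). Angptl4 had r = -0.07, Fetub 0.15, Ahsg 0.09, Igf1 0.07 and Lect2 0.09. Among 11297 named genes above background on all liver arrays, ranked by r with Enho, Igfbp2 stood at percentile 87.2, Fetub at 72.3, Lect2 at 62.5, Ahsg at 62.3, Igf1 at 60.4, Angptl4 at 38.1, Fgf21 at 23.3 and Igfbp1 at 3.19. The 8 genes thus lay between percentiles 3.19 and 87.2 of the order, with Igfbp1 nearest to an end.

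**Figure D4:**
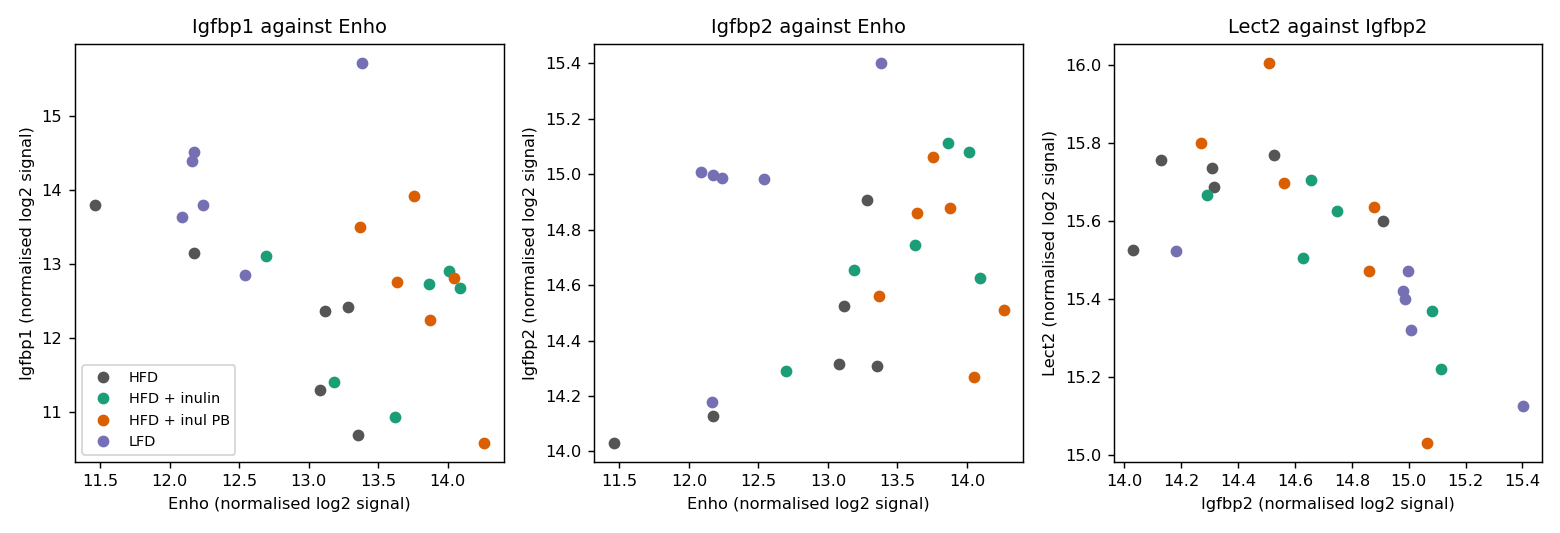
Normalised log2 signal of 3 pairs of genes on the 24 liver arrays, coloured by diet. Over all arrays Igfbp1 falls as Enho rises (r = -0.44). Their diet-centred r is -0.30 (-0.12 without HFD replicate 4 and -0.54 without LFD replicate 4). Igfbp2 and Enho have a diet-centred r of 0.53 (0.37 without HFD replicate 4 and LFD replicate 4) and an r of 0.28 over all arrays. Lect2 falls as Igfbp2 rises (r = -0.71).

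The genes whose pattern was most like that of Enho over the 24 arrays were Ripply2 (r = 0.75), Bola2 (0.73), Ephb4 (0.71), Slc13a5 (0.70) and Tppp (0.70). Slc13a5 encodes a citrate transporter of the hepatocyte membrane and Ephb4 an ephrin receptor. Their differences from HFD, on the fiber diets all under 1.5-fold except in Slc13a5, were 1.46 with HFD + inulin, 1.15 with HFD + inul PB and 0.53 on LFD for Slc13a5. For Bola2 they were 0.12, 0.13 and 0.02. The genes most opposite to Enho were Pik3c2g (r = -0.77), Hamp2 (-0.75), Khk (-0.71), Saa1 (-0.70) and Hoxb4 (-0.70). Hamp2 encodes a hepcidin, Khk the ketohexokinase that phosphorylates fructose, and Saa1 an acute phase protein. After centring on diets the r of Saa1 was -0.78, of Hamp2 -0.70 and of Khk -0.62, whereas that of Hoxb4 was -0.45 and that of Ephb4 0.43. These are the ends of a ranking over 24 arrays that were normalised together, and they carry no test.

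Relations were also seen among the genes other than Enho. Of the 28 pairs without Enho, 10 had a permutation P under 0.05, and the median size of r was 0.31, beside 0.12 for the 8 pairs with Enho, a difference that was not tested. These r and P are pooled over the diets, so differences between diets take part in them. The share of other gene pairs under this P is not given here, so the count is a description only. Igfbp1 and Fgf21 rose together (r = 0.57, rho = 0.49, permutation tests, P = 0.00348 and 0.0169), and after centring on diets r was 0.65. Without HFD + inulin replicate 4 and LFD replicate 4, the arrays farthest from the Fgf21 median, r was 0.40. Lect2 and Fetub rose together (r = 0.62, rho = 0.57, permutation tests, P = 0.00115 and 0.00348), and Igf1 followed Fetub (r = 0.51, rho = 0.55, permutation tests, P = 0.0105 and 0.00619). Without the 2 arrays farthest from the Fetub median r was 0.51 and 0.41 for these pairs.

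Members of these groups ran opposite to each other. Lect2 fell with Igfbp2 (r = -0.71, rho = -0.78, permutation tests, P = 0.00012 and 1e-05, the latter the smallest that the resamples can give), with Igfbp1 (r = -0.65, rho = -0.59) and with Fgf21 (r = -0.63, rho = -0.54), the last pair of relations at permutation P of 0.00068 and 0.00098. Fetub fell with Igfbp1 (r = -0.65, rho = -0.54), with Fgf21 (r = -0.61, rho = -0.52) and with Igfbp2 (r = -0.42, rho = -0.36), and Igf1 fell with Fgf21 (r = -0.48, rho = -0.49), at permutation P of 0.00071, 0.00132, 0.0416 and 0.0193. These P, like those for Lect2, are pooled over the diets. After centring on diets and without HFD replicate 4 and LFD replicate 4, r was -0.52, -0.43, -0.26 and -0.27, in the same order. Without the 2 arrays farthest from the median of the second gene named, r was -0.47 and -0.55 for Lect2 with Igfbp1 and Fgf21, -0.43, -0.48 and -0.38 for Fetub, and -0.46 for Igf1. Lect2 with Igfbp2 was negative on each slide, at r = -0.80, -0.73 and -0.60, and after centring on diets at -0.62, and without LFD replicate 4 and HFD replicate 4, the arrays farthest from the Igfbp2 median, it was -0.72. Without LFD replicate 4 alone, Igfbp1 with Fgf21 gave r = 0.45, Fetub with Igfbp1 -0.54, Lect2 with Igfbp1 -0.57 and Fetub with Igfbp2 -0.28, the last no longer at a P under 0.05 (permutation test, P = 0.203). In the LIMMA fits with diet as a factor none of the 36 pairs had an adjusted P under 0.05 over all probe IDs. On the level of Igfbp1 5.34% of all probe IDs had an unadjusted P under 0.05 and 0.00898% an adjusted P under 0.05, and on that of Fgf21 7.42% and 0.0162%.

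**Figure D5:**
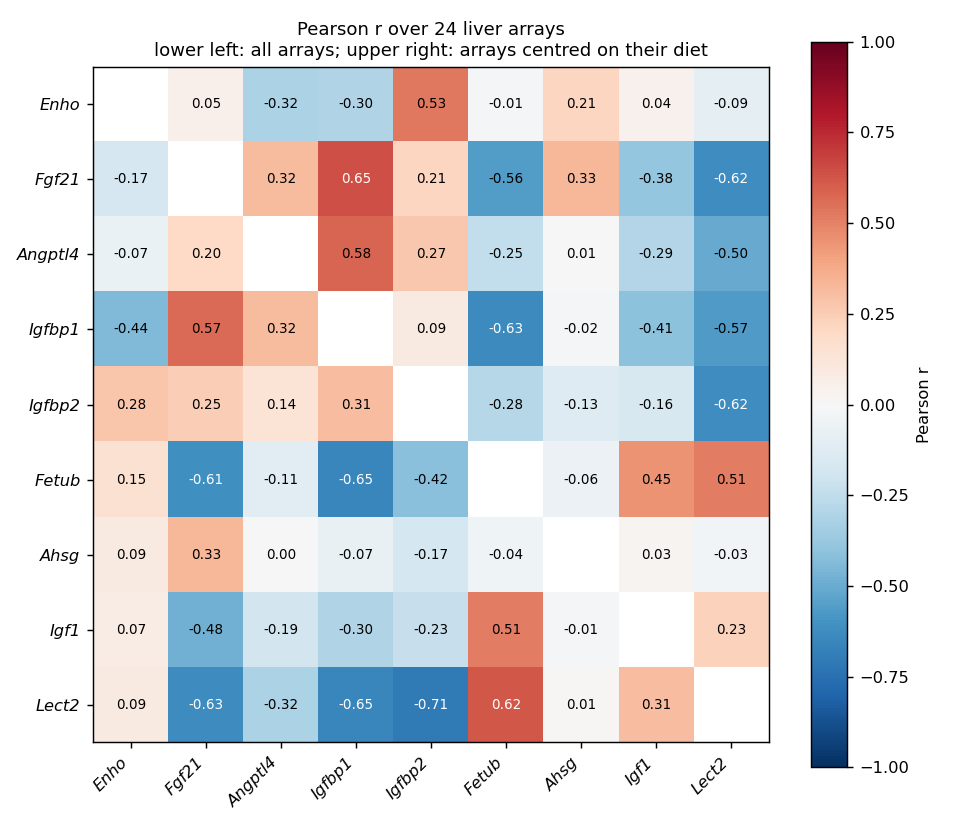
Pearson r for each pair of the 9 genes over the 24 liver arrays, over all arrays below the diagonal and after centring on the diet means above it. The cells of Enho are mostly pale, whereas Fgf21 and Igfbp1 run opposite to Fetub and Lect2 on both sides of the diagonal (r between -0.56 and -0.65).

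The pathways in which these genes work were described from lists of genes. In the list of LXR, SREBP-1c and lipogenesis genes 5 of 22 passed the fold and P criteria as higher on LFD than on HFD, where 0.424% of all probe IDs did, with a median difference of 0.41 beside -0.00 over all probe IDs. Acaca and Acacb, the acetyl-CoA carboxylases, stood 1.06 (SE 0.28, LIMMA, adjusted P = 0.299) and 1.63 (SE 0.46, adjusted P = 0.377) above HFD. Scd1, a desaturase, stood 0.99 (SE 0.28, adjusted P = 0.379) above it and Elovl6, an elongase, 1.34 (SE 0.43, adjusted P = 0.465). The last of the 5 was Me1, malic enzyme, at 1.04 (SE 0.37, adjusted P = 0.539). Between the fiber diets and LFD 7 of the 22 passed as lower, these 5 with Elovl5 and Pnpla3, beside 0.535% of all probe IDs. At an unadjusted P under 0.05 (LIMMA) there were 10 of the 22 against HFD and 10 between the fiber diets and LFD. The shares of all probe IDs were 6.77% and 7.22%. On the fiber diets 0 of the 22 passed (LIMMA, 0 also at an unadjusted P under 0.05), and Nr1h3, which encodes LXRα, differed from HFD by -0.00, -0.01 and -0.06. Scd1 had r = -0.69 with Enho over the 24 arrays and Me1 -0.56, descriptions in which the diet means take part.

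Of 26 targets of PPARα and of fasting, 2 passed as lower on LFD, where 0.293% of all probe IDs did. These were Vnn1, a pantetheinase, at -1.08 (SE 0.38, LIMMA, adjusted P = 0.537), and Cd36, a fatty acid translocase, at -0.83 (SE 0.27, adjusted P = 0.485). Of the 26, 9 had an unadjusted P under 0.05 (LIMMA) on LFD, beside 6.77% of all probe IDs. With HFD + inulin 1 did and with HFD + inul PB 0, beside 3.79% and 3.13%. The median of the list was -0.24 on LFD, -0.06 with HFD + inulin and -0.10 with HFD + inul PB, and Ppara itself stood at -0.47 (SE 0.17, LIMMA, adjusted P = 0.571) on LFD, short of the fold criterion. Among 30 other secreted liver proteins, Fst, the activin antagonist follistatin, was higher on LFD by 1.63 (SE 0.30) or 3.09-fold (LIMMA, adjusted P = 0.0536), and Inhbe, an activin subunit, was lower, at -1.01 (SE 0.32, LIMMA, adjusted P = 0.465), where 0.424% of all probe IDs passed as higher and 0.293% as lower. None of the 30 passed on either fiber diet (LIMMA), with 2 and 3 at an unadjusted P under 0.05 beside 3.79% and 3.13% of all probe IDs, and 27 of the 30 were above background on all liver arrays. On LFD 5 of the 30 had an unadjusted P under 0.05 (LIMMA), beside 6.77% of all probe IDs. Of 18 clock and ROR genes none passed against HFD (LIMMA), with 0, 0 and 1 at an unadjusted P under 0.05 beside 3.79%, 3.13% and 6.77% of all probe IDs, and 13 were above background on all liver arrays. Between the fiber diets and LFD Tef passed as higher (0.89, SE 0.26) and Arntl (-1.77, SE 0.53) and Nfil3 (-0.75, SE 0.26) as lower, beside 0.239% and 0.535% of all probe IDs. There 8 of the 18 had an unadjusted P under 0.05 (LIMMA), beside 7.22% of all probe IDs.

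Markers of the cells in the samples were read beside these values. All 14 hepatocyte markers were above background on all 24 arrays, with Apoa2 the brightest probe and a summed signal of 21.25 on HFD, 21.26 with HFD + inulin, 21.21 with HFD + inul PB and 21.28 on LFD. Of the other cell types, all 10 macrophage markers measured were above background on every array, as were 10 of 10 endothelial markers, 10 of 11 stellate cell markers, 4 of 8 cholangiocyte markers, 6 of 9 lymphocyte markers and 1 of 7 adipocyte markers. Against HFD 1 of these genes passed the criteria, the B cell gene Cd79b, higher on LFD by 0.78 (SE 0.22, LIMMA, adjusted P = 0.358), where 0.424% of all probe IDs passed as higher. On LFD 4 of 14 hepatocyte, 4 of 10 endothelial and 3 of 9 lymphocyte markers had an unadjusted P under 0.05 (LIMMA). So did 1 of 10 macrophage, 2 of 11 stellate cell, 1 of 8 cholangiocyte, 0 of 7 adipocyte and 5 of 8 red blood cell markers. Of all probe IDs 6.77% did. The median LFD difference was 0.41 for lymphocyte, 0.52 for red blood cell, 0.67 for adipocyte and -0.42 for cholangiocyte markers. The summed signals correlated with Enho at r between -0.34, for stellate cells (brightest probe Dcn), and 0.03, for cholangiocytes (brightest probe Spp1). The stellate cell sum was 16.15 on HFD, 16.00 with HFD + inulin, 15.96 with HFD + inul PB and 16.04 on LFD, and its part in the Enho values was not tested.

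In cecum 4 of the 9 genes were well above background on all 22 arrays, Enho, Angptl4, Igfbp2 and Igf1. Fgf21, Igfbp1 and Lect2 were not well above background on any, Ahsg was on 1 and Fetub on 5. Enho, with means of 11.24 on HFD, 11.18 with HFD + inulin, 11.39 with HFD + inul PB and 11.12 on LFD, differed from HFD by -0.06 (SE 0.27), 0.15 (SE 0.28) and -0.12 (SE 0.28), with LIMMA adjusted P = 0.942, 0.842 and 0.963. The difference of the response between the tissues was not tested.

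Cecal Igfbp2 rose on HFD + inulin. It ran from 5.48 to 8.55 on HFD (median 7.43, mean 7.28 ± 1.04, n = 6), from 7.55 to 10.65 on HFD + inulin (median 8.57, mean 8.99 ± 1.23, n = 6), from 7.83 to 9.26 on HFD + inul PB (median 8.92, mean 8.80 ± 0.57, n = 5) and from 6.62 to 8.11 on LFD (median 7.43, mean 7.41 ± 0.53, n = 5). The difference from HFD was 1.71 (SE 0.51) or 3.28-fold on HFD + inulin (LIMMA, adjusted P = 0.0974), in a comparison in which 2.47% of all probe IDs were called by fold and P and 1.58% by adjusted P. The arrays of these diets overlapped, the lowest with HFD + inulin lying under the highest on HFD. On HFD + inul PB it was 1.52 (SE 0.54, LIMMA, adjusted P = 0.0973), just outside the P criterion, where 4.69% and 7.02% of all probe IDs passed. On LFD, where 0.639% passed the fold and P criteria, it was 0.13. Without HFD replicate 5 the HFD + inulin difference was 1.35 and the call was lost, as it was without HFD + inulin replicate 3 or 6 (1.38 and 1.44). Angptl4 stood -1.29 (SE 0.48) from HFD on HFD + inul PB in cecum (LIMMA, adjusted P = 0.120) and -0.65 on HFD + inulin, neither past the criteria.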

How the data were processed

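Liver and cecum of mice on 4 diets were measured on 24 and 22 arrays, grouped by the labels. The authors deposited for each array the spot intensity on a linear scale as given by Agilent Feature Extraction 10.7.3.1, including a processed signal with background subtracted and no scaling between arrays. They also deposited a table of processed log2 values, which their methods describe as cyclic-loess normalised in R and averaged over identical probes; how background was treated in it is not given in the sources used here. Its columns have medians from 6.26 to 6.38 in liver and correlate with the log2 median spot signal at r of 0.999 or above.

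Here control spots and outlier spots as marked by the scanner software were dropped, the log2 processed signal was normalised per tissue by cyclic loess (span 0.7, 3 iterations), and the 59305 non-control spots of an array were averaged to 55681 probe IDs. Of these, 27509 were named through their accession in a RefSeq table of GRCm38.p6, used for names and upstream sequences only. LIMMA (here limma 3.58.1 in R 4.3.3) was the tool the study names for comparison with HFD, and the fit of all 4 diets of a tissue together without covariates was chosen here. Calls needed a fold over 1.5 and an unadjusted P under 0.01, or an adjusted P under 0.05 (Benjamini-Hochberg, taken over every probe ID of the tissue). Exact permutation tests and permutation tests of correlations (100000 resamples) were two-sided. The scripts were tested on simulated data. No pair among the 276 pairs of liver arrays held identical values. Nothing says which liver and cecum arrays share a mouse, so tissues were not paired, and P values measure the spread between samples.

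The genes and lists were chosen with earlier results of these data known. Genes named from the lists are those past the criteria against HFD, up to 4 with the lowest P per list and comparison, with Ghr, Ppara, Klb and Nr1h3 always named. Me1, Elovl5, Pnpla3, Tef, Arntl and Nfil3 were added after their values were seen, and 5 genes at each end of the order by r with Enho were named, predicted genes left out. Alternatives tried were scaling to the 75th percentile, quantile normalisation, normexp background correction (offset 50, on the median spot signal because the mean is not in the files), the authors' values, outlier spots kept, a filter on dim probes, slide or replicate number as a block, only the diets compared, other probe IDs, and leaving out each array. Those for cecum, and the correlations without HFD replicate 4, LFD replicate 4 or both, were added after the data were seen.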

Additional observations from a re-analysis of the deposited data

Results flagged for a closer look

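Within a diet, an array was looked at again where its distance to the nearest other array was a large share of the range of that diet by Dixon's criterion at 95%. Of 52 groups of arrays looked at, 4 held such an array, and about 1 in 20 groups, 2.6 here, would by chance. In liver, LFD replicate 4 was the highest of its diet for Enho with 13.38 (next 12.54) and for Fgf21 with 12.11 (next 9.58), values of 1 array that are not independent. In liver, LFD replicate 5 was the lowest of its diet for Igfbp2 with 14.18 (next 14.98), and without it the LFD difference of Igfbp2 passed the criteria. In cecum, HFD + inul PB replicate 5 was the lowest of its diet for Igfbp2 with 7.83 (next 8.86).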

How the results depend on the processing

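Of 259 tested differences of the 9 liver genes recomputed under another setting, 248 kept their direction and their side of the criteria, 2 came past the criteria and 9 changed sign. The 40 recomputed Enho differences that carry no test kept their direction. For Igfbp1 the LFD difference kept its call under every other setting that kept all arrays, between 1.86 and 1.89. Igfbp2 came past the fold criterion on LFD with normexp (0.59) and with the authors' values (0.60), so that 2 of the 8 genes other than Enho passed there instead of 1. On HFD + inulin the sign changed for Igfbp1 with normexp (-0.00016), for Ahsg when scaled to the 75th percentile (0.018) or by quantiles (0.023) and for Igf1 on other probe IDs (0.079 and 0.065), which also gave 0.067 and 0.14 on LFD and -0.024 between the fiber diets. Fetub on HFD + inul PB was -0.012 by quantiles.

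Leaving out each array in turn gave ranges on HFD + inulin of 0.02 to 1.10 for Fgf21, -0.21 to 0.10 for Angptl4, -0.31 to 0.31 for Igfbp1 and -0.034 to 0.011 for Ahsg. On HFD + inul PB it gave -0.078 to 0.25 for Angptl4, -0.052 to 0.041 for Fetub and -0.15 to 0.043 for Lect2. On LFD it gave -0.090 to 0.011 for Ahsg, 1.55 to 2.17 for Igfbp1 and 0.46 to 0.71 for Igfbp2, with 0 to 2 of the 8 genes called. Between the fiber diets and LFD it gave -1.95 to -1.38 for Igfbp1.

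The r with Enho changed sign on centring by diet for Fgf21 (0.048), Fetub (-0.012) and Lect2 (-0.093), without the 2 farthest arrays for Angptl4 (0.20) and Igf1 (-0.16), and by quantiles for Ahsg (-0.034). Within slide 1 it did so for Igfbp2 (-0.065) and Igf1 (-0.20), within slide 2 for Angptl4 (0.094) and Lect2 (-0.024), and within slide 3 for Angptl4 (0.68), Fetub (-0.025), Ahsg (-0.34), Igf1 (-0.25) and Lect2 (-0.042). Leaving out each array gave -0.17 to 0.054 for Angptl4, -0.046 to 0.20 for Ahsg, -0.073 to 0.22 for Igf1, -0.051 to 0.20 for Lect2 and -0.55 to -0.37 for Igfbp1, and diet-centred values of -0.54 to -0.12 for Igfbp1 and 0.45 to 0.59 for Igfbp2. The cause of these changes was not tested.

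In cecum, where the settings were chosen after seeing the data, Igfbp2 on HFD + inul PB passed the criteria when scaled to the 75th percentile (1.55), with normexp (1.17), with the authors' values (1.27) and with the replicate block (1.71), and Angptl4 there with normexp (-1.28), the authors' values (-1.31) and slide as a block (-1.38). The cecum replicate block joins arrays of different slides. Replicate 4 lay on slide 2 for HFD and HFD + inulin and on slide 3 for HFD + inul PB and LFD. Leaving out each array gave Enho -0.31 to 0.080 on HFD + inulin and -0.23 to 0.023 on LFD, Angptl4 -1.45 to -0.96 on HFD + inul PB and -0.48 to 0.030 on LFD, and Igfbp2 1.35 to 2.00, 1.16 to 1.78 and -0.23 to 0.38 on the 3 diets.

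Replicate numbers in liver were not taken as pairs. Arrays with the same number had a median r of 0.10 in their deviations from the diet means, over 0.1 in 19 of 36 pairs. All of these pairs share a slide. Arrays of other numbers on the same slide had a median r of 0.074, over 0.1 in 11 of 36 pairs, and arrays on different slides -0.048, over 0.1 in 2 of 144 pairs. With the replicate block the numbers of probe IDs past these criteria against HFD were 260, 209 and 454 in place of 222, 161 and 399, and those past the adjusted P on LFD 5 in place of 16. With slide as a block they were 251, 185 and 460, and 12 past the adjusted P on LFD. For the liver genes the replicate block changed no call, and Igfbp1 on LFD stayed at 1.87. Signal over background limits the cecum values of Fgf21, Igfbp1, Lect2, Ahsg and Fetub, which were not compared, and no scaling moved the median of all probe IDs by over 0.06 in a liver comparison.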
